A study of Mus musculus with 14 samples.

Results

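The 43 genes described here encode proteins that copy DNA in the S phase of the cell cycle, and they were followed in B16F10 melanoma tumours of mice treated by transfer of T cells. They were chosen by function, with earlier results of these data known. From the arrays 1 probe per gene was taken, the one with the highest mean signal. Of the 43 genes, 40 were found by the gene name in the scanner files, some under older names such as Orc1l and Cdc45l. The other 3, Orc2, Orc6 and Gins2, carried older names there and were found through their RefSeq accession. All 43 were well above background on all 14 arrays, among 17033 genes that passed the filter on dim probes.

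B16F10 is a mouse melanoma line, and the tumours grew in C57BL/6 mice, the strain of all groups. Untreated tumours were collected on days 1, 3, 5 and 7, counted from the day of T cell transfer in the treated mice, which was 9 days after the tumour cells were given. The CTL arm received cytotoxic T lymphocytes activated in vitro, positive for CD90.1 and specific for gp100, a protein of pigment cells, and was sampled on the same 4 days. The CTL with anti-IFNg arm received the same cells plus an antibody against interferon gamma, and the CTL with IgG arm received control Rat IgG in its place, injected on the day of transfer and 2 days later, with tumours from days 3, 5 and 7. Each array held pooled RNA of 4 tumours (untreated and CTL) or 3 tumours (both antibody arms), with 1 array per arm and day, so n below counts days and an arm on a given day was measured once. The p-values therefore reflect the scatter over days of differences between pools taken on the same day, and leave out the spread between mice. Whole tumours were used, with their host cells and, in the treated arms, any transferred cells, and in such samples fewer cells of a type and less RNA per cell cannot be told apart.

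Replication starts at origins, where the origin recognition complex, Cdc6 and Cdt1 load the Mcm2 to Mcm7 ring in an inactive form. Kinases and firing factors then turn the ring into a moving helicase, and primase, DNA polymerases, the sliding clamp Pcna with its loader, and the single-strand binding complex copy both strands. Many of these genes are transcribed at the G1 to S transition under E2F factors, so their transcripts are low in resting cells and high in dividing ones.

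Since the genes moved together, the letters of their promoters are given first. RefSeq start sites (GRCm38.p6) were matched for 36 of the 43 genes, with 44 promoter windows of 250 bases before to 50 after the start. The E2F letters searched were TTTCCCGC, TTTCGCGC, TTTGCCGC and TTTGGCGC on both strands, and the CCAAT box, which binds the factor NF-Y, was searched as CCAAT on both strands. E2F letters were present in 13 of 36 genes (36.1%), against 4.40% of 10606 matched genes among those tested and 2.60% of all 27025 genes of the table. CCAAT was present in 22 of 36 (61.1%), against 42.8% of the matched genes tested and 41.1% of all genes of the table. The CHR element of mitotic genes, searched as TTTGAA and TTCGAA on both strands and not marked here, was present in 8 of 36 (22.2%), against 16.5% and 21.7%. These matches describe letters and not bound sites, and a window without them says only that they are not in it. The 250 bases before the start are shown, 5′ to 3′, for 4 genes. Orc1 and Mcm6 hold E2F letters there, Rpa1 had the largest change with T cells and Rrm2 the smallest, and neither of these holds E2F letters. Capitals mark matches to the E2F letters or CCAAT in either orientation, and in Mcm6 a pair of overlapping E2F matches forms 1 longer run.
Orc1: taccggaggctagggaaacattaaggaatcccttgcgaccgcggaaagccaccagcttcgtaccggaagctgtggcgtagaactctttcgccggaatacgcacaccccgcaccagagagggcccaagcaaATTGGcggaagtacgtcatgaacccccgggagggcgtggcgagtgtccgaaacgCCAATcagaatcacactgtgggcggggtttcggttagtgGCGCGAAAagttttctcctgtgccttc
Mcm6: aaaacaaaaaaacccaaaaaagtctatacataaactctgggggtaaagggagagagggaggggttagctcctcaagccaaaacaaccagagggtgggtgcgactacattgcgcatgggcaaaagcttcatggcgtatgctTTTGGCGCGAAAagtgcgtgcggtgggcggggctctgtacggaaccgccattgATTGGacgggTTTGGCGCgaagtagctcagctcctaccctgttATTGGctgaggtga
Rpa1: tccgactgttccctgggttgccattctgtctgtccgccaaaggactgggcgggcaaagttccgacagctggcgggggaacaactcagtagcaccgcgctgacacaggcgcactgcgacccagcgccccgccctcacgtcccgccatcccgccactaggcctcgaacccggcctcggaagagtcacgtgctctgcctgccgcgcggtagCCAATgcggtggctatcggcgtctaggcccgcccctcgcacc
Rrm2: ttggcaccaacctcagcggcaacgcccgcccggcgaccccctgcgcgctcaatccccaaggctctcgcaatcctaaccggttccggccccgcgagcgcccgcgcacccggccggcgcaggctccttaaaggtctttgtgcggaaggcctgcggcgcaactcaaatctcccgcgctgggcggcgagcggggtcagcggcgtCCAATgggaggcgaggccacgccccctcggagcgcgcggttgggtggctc
The Orc1 window lies on chr4:108579204-108579453 (plus strand), Mcm6 on chr1:128359706-128359955 (minus), Rpa1 on chr11:75348384-75348633 (minus) and Rrm2 on chr12:24708004-24708253 (plus). In CTL against untreated tumours of days 3 to 7 the 13 genes with E2F letters had a median log2 difference of -0.67, with 10 called lower, and the 23 without them -0.72, with 18 called lower.

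Signals are given as the log2 of the processed signal minus the 75th percentile of the same array, so a difference of 1 is 2-fold. They compare 1 gene across arrays and never 1 gene with another. The share of spots well above background ranged from 48.9% to 59.7% between arrays, and no spot was saturated. The 75th percentile of the raw processed signal differed between arrays. On days 3, 5 and 7 it was 358, 312 and 301 on the CTL arrays and 470, 495 and 303 on the untreated arrays. On day 1 it was 536 with CTLs and 485 untreated. With IgG it was 415, 407 and 365 on days 3, 5 and 7, and with anti-IFNg 397, 454 and 486. The part of this in the results was not tested. The arms kept their array positions from slide to slide, which means that an effect of position and one of arm cannot be told apart. Treatment was visible in Cxcl9, a chemokine induced by interferon gamma, which rose by 6.36 ± 0.72 in CTL against untreated tumours of days 3 to 7 (limma, adjusted p = 0.000913) and fell by 4.92 ± 0.72 in antibody against IgG tumours (adjusted p = 0.00565). Melanocyte markers, the defining genes of the tumour line, had a summed level of 1542 to 1834 on the CTL arrays of days 3 to 7 and 1374 to 1911 on untreated arrays (sums of linear signal over the 75th percentile), and 0 of 8 passed the test. Such sums are weighted to the brightest probes, here Dct, Pmel and Mlana. Of the 8 markers 4 were below 0 and 4 above. The lowest was Tyr, at -0.62, and the highest Mitf, at 0.54. Tyr gave -1.09, -1.34 and -1.33 on the untreated arrays of days 3, 5 and 7 and -2.46, -1.94 and -1.23 on the CTL arrays. Mitf gave 2.40, 2.22 and 2.63 on the untreated arrays of those days and 2.35, 3.26 and 3.27 on the CTL arrays.

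The plot of all 43 genes by array shows the course in each arm against the gene's own mean over the 4 untreated arrays. On day 1 the CTL median was 0.00064 and on days 3, 5 and 7 it was -1.02, -0.77 and -0.47. With IgG the medians were -0.58, -0.53 and 0.01, and with anti-IFNg they were -0.10, 0.06 and 0.13. Untreated arrays were not flat: the median was 0.02, -0.02, 0.18 and -0.13 on days 1, 3, 5 and 7. The untreated array of day 5 was the highest of its arm for 38 of 43 genes and that of day 7 the lowest for 28. Each day had its own slide, so a change over days within an arm cannot be told apart from one between slides.

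**Figure D1:**
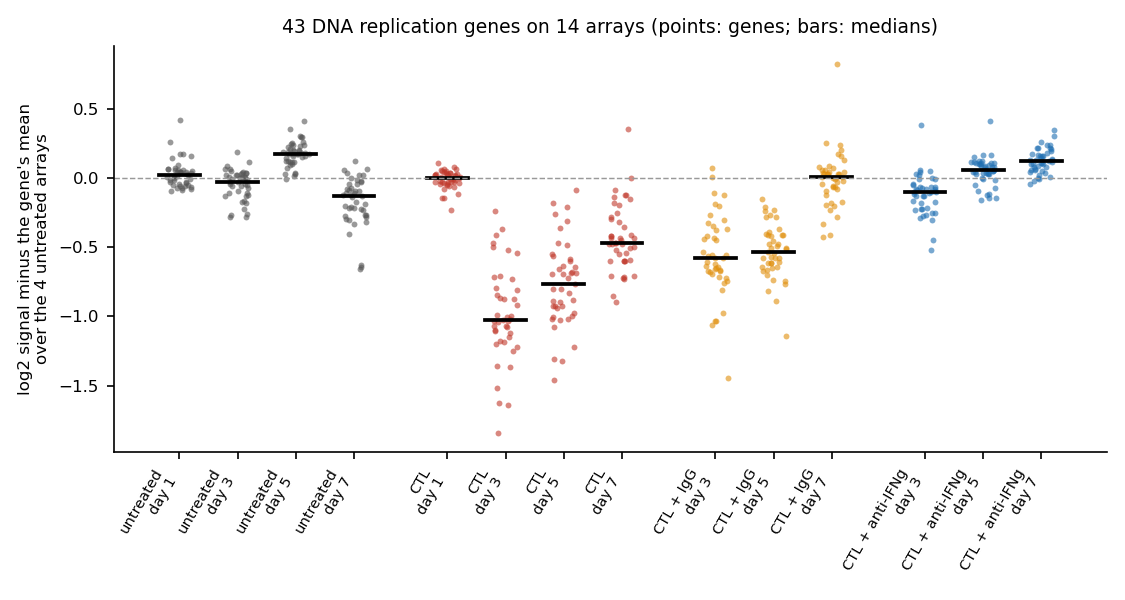
Log2 signal of the 43 genes on each of 14 arrays, minus the gene's mean over the 4 untreated arrays; points are genes, bars are medians and the dashed line marks the untreated mean. On this scaling all 43 genes lie below the line on the CTL arrays of days 3 and 5, whereas the medians of the anti-IFNg arrays lie between -0.10 and 0.13.

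The main comparison of CTL with untreated tumours used days 3, 5 and 7, a window chosen with an earlier analysis of these data known. The fit with day 1 kept is given below. All 43 genes were lower in CTL than in untreated tumours (40 of 43 with normexp background correction) and 33 passed the test, all of them lower (limma, adjusted p under 0.05 over all genes). Of all genes tested, 21.4% were called lower in this comparison. The median log2 difference of the 43 was -0.72, against -0.10 over all genes, and single genes ranged from -1.23 for Rpa1 to -0.25 for Rrm2. In 34 of the 43, every CTL array of days 3 to 7 lay below every untreated array of those days, as did 28.5% of all genes. The exceptions were Cdc7, Pola2, Pold1, Rfc3, Rrm2, Tk1, Ccne1, Ccne2 and Uhrf1.

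The count of 33 draws on the spread of all 4 arms. With only the CTL and untreated arrays in the fit 1 gene, Rpa1, was called, and with day 1 added to the fit 5. Without day 3 or without day 5 there were 0 calls by limma, with all 43 genes still below 0 and medians of -0.63 and -0.61. Without day 7 it was 37, with a median of -0.95.

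**Figure D2:**
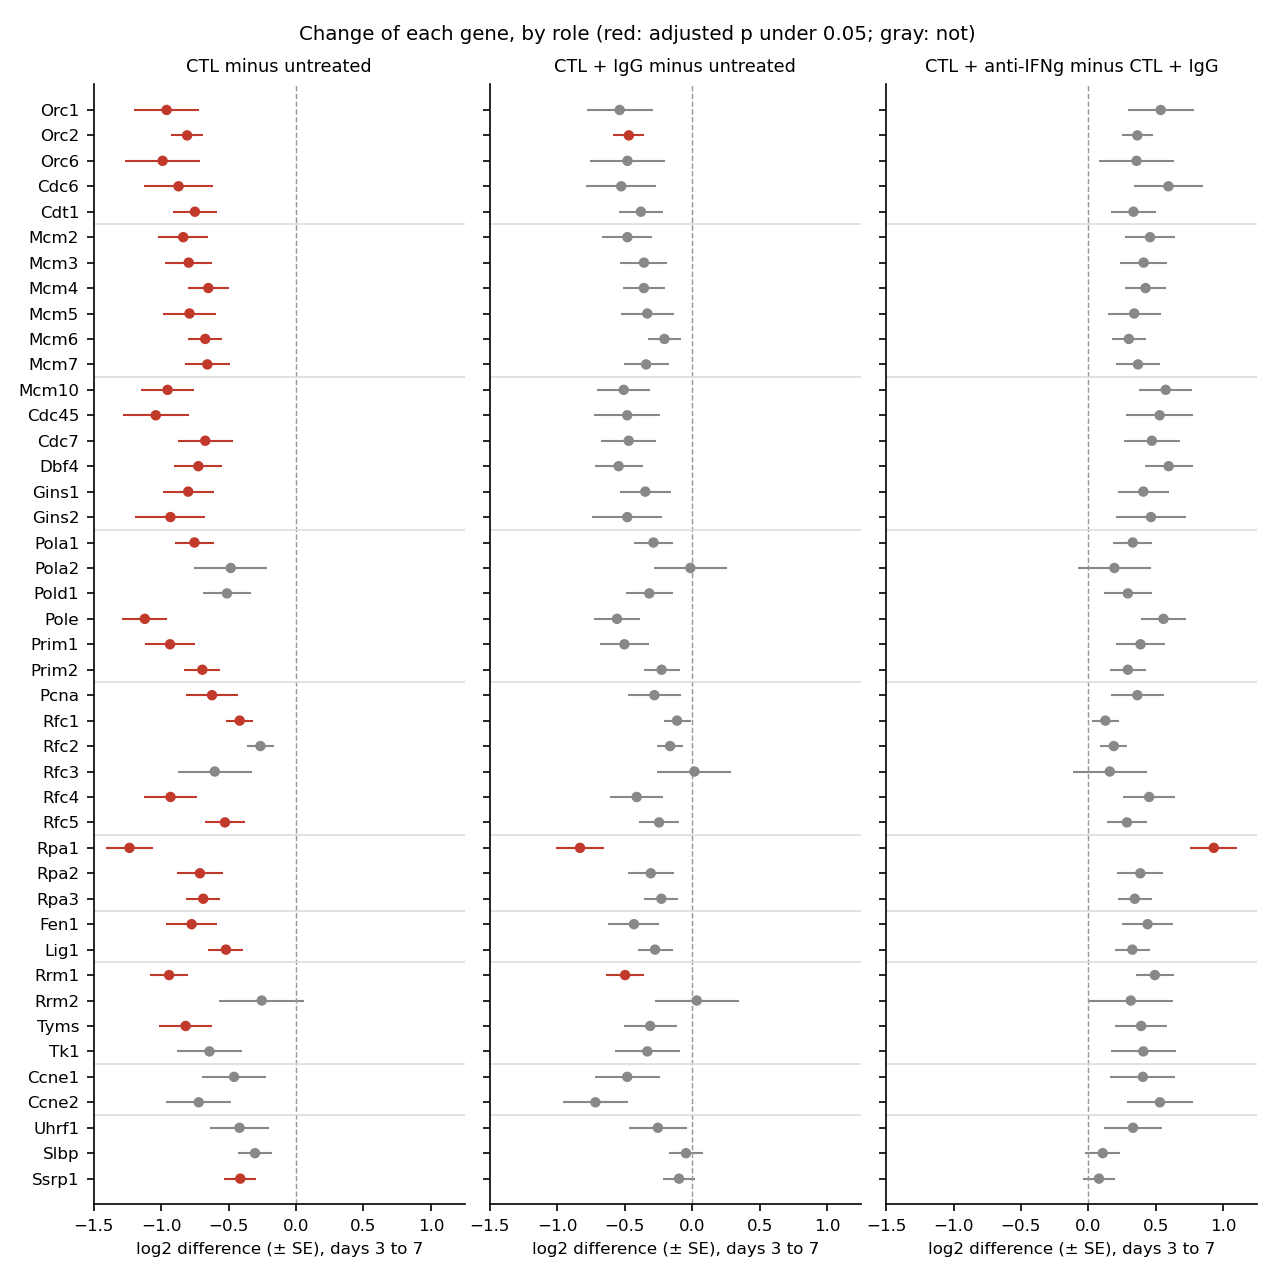
Log2 difference of each gene over days 3 to 7 (points) with its standard error (lines) in 3 comparisons, genes ordered by role with gray rules between roles; red marks an adjusted p under 0.05. In CTL against untreated tumours 33 genes are red, in CTL with IgG against untreated 3, and in antibody against IgG only Rpa1, although all 43 points of that comparison lie above 0.

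Among the licensing genes all 5 fell. These are Orc1, Orc2 and Orc6 of the origin recognition complex, and Cdc6 and Cdt1, which load the helicase. Orc6 had the largest change. It gave 4.51, 4.49, 4.73 and 4.35 on the untreated arrays of days 1, 3, 5 and 7. CTL arrays of the same days gave 4.38, 2.67, 3.89 and 4.04. The day 3 array was the lowest by far, and from day 3 on no CTL array reached the untreated range. The change was -0.99 ± 0.28 (SE, n = 3 days; adjusted p = 0.0307).

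Orc2 had the smallest p of the group. Untreated arrays gave 2.46, 2.58, 2.61 and 2.50 and CTL arrays 2.46, 1.83, 1.62 and 1.82. The arms matched on day 1 and were apart on each later day by at least 0.68, the smallest gap being that of day 7. Orc2 fell by 0.81 ± 0.12 (adjusted p = 0.00246). Orc1, the largest subunit, had the same direction from the first day on: -1.31, -1.99, -1.49 and -2.13 in untreated tumours against -1.96, -3.37, -2.67 and -2.45 in CTL tumours. Its change was -0.96 ± 0.24 (adjusted p = 0.0212), but the signal was low, and with normexp background correction the difference was 0.08. Cdc6 fell by 0.87 ± 0.26 and Cdt1 by 0.75 ± 0.16. The probes of Orc6, Orc2 and Orc1 lie on chromosome 8 from 88197975 to 88198034, chromosome 1 from 58407864 to 58407923 and chromosome 4 from 108110099 to 108111006 (mm8, as the files give them). No exon annotation of that build was used.

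The 6 subunits of the Mcm2 to Mcm7 ring all fell, within a narrow range from 0.65 (Mcm4) to 0.84 (Mcm2). Mcm2 gave 4.18, 4.03, 4.33 and 4.01 in untreated and 4.17, 2.78, 3.44 and 3.64 in CTL tumours. The arms were level on day 1, and the gap narrowed from day 3 to day 7. Its change was -0.84 ± 0.19 (adjusted p = 0.0129). Mcm6 had 6.42, 6.37, 6.53 and 6.32 untreated and 6.46, 5.61, 5.72 and 5.86 with CTLs. The 3 later CTL arrays again lay below all untreated ones, and Mcm6 fell by 0.67 ± 0.13 (adjusted p = 0.00684), or to 0.627 of the untreated level. Mcm3, Mcm5 and Mcm7 fell by 0.80 ± 0.17, 0.79 ± 0.20 and 0.66 ± 0.17.

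All 6 firing genes fell as well. Cdc45 and the GINS subunits Gins1 and Gins2 complete the active helicase, Mcm10 helps to start it, and Dbf4 switches on the kinase Cdc7, which acts on the Mcm ring. Cdc45 had the largest change, with -0.11, -0.08, 0.01 and -0.49 untreated and -0.15, -1.37, -1.63 and -0.69 with CTLs. The arms were equal on day 1 and near each other again on day 7, where the untreated array was at its lowest. Cdc45 fell by 1.04 ± 0.25 (adjusted p = 0.0166). Mcm10 gave 3.84, 3.87, 4.09 and 3.78 untreated and 3.78, 2.71, 2.87 and 3.30 with CTLs. All later CTL arrays were below the untreated range, and Mcm10 fell by 0.95 ± 0.19 (adjusted p = 0.00962). Gins2, Gins1, Dbf4 and Cdc7 fell by 0.93, 0.80, 0.72 and 0.67.

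Of 6 polymerase and primase genes 4 fell: Pole, the catalytic subunit of leading-strand polymerase epsilon, Pola1 of the polymerase that extends primers, and both primase subunits. Pole gave 2.33, 2.33, 2.46 and 2.01 on untreated arrays and 2.35, 1.03, 0.97 and 1.43 on CTL arrays. All of the later CTL arrays lay more than 0.5 below the lowest untreated one. Pole fell by 1.12 ± 0.17, to 0.460 of the untreated level (adjusted p = 0.00296), and its probe lies on chromosome 5 from 110577648 to 110577707 (mm8). Prim1, Pola1 and Prim2 fell by 0.93 ± 0.18, 0.75 ± 0.15 and 0.69 ± 0.13. Pold1, the catalytic subunit of lagging-strand polymerase delta, had -0.51 ± 0.18 (adjusted p = 0.0580), and Pola2, the regulatory subunit beside Pola1, had -0.48 ± 0.27 (adjusted p = 0.204). Pola2 was dim, and its difference was 0.08 with normexp correction.

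The clamp Pcna and the clamp loader subunits Rfc1, Rfc4 and Rfc5 fell, while Rfc2 (-0.26 ± 0.10, adjusted p = 0.0745) and Rfc3 (-0.60 ± 0.27, adjusted p = 0.127) did not pass. Rfc4 changed most: 3.80, 3.80, 4.04 and 3.49 untreated, and 3.74, 2.68, 2.78 and 3.07 with CTLs. From day 3 on the CTL arrays were below all untreated arrays. Rfc4 fell by 0.93 ± 0.20 (adjusted p = 0.0106), Pcna by 0.62 ± 0.19, Rfc5 by 0.53 ± 0.15 and Rfc1 by 0.42 ± 0.10. On day 5 Rfc2, at -0.24, was the least changed of all 43 genes.

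The single-strand binding complex held the gene with the largest change of all 43. Rpa1, its large DNA-binding subunit, gave 4.71, 4.60, 4.68 and 4.71 in untreated tumours, a spread of about 0.1. CTL arrays gave 4.72, 3.05, 3.46 and 3.78. Levels were equal on day 1, then lower by 1.55, 1.22 and 0.93 on days 3, 5 and 7. Rpa1 fell by 1.23 ± 0.18 (adjusted p = 0.00233), to 0.425 of the untreated level. It is the 1 gene of the 43 that was called in all 11 settings in which every day was kept. Its single probe lies on chromosome 11 from 75116753 to 75116812 (mm8). Rpa2 and Rpa3, the smaller subunits, fell by 0.71 ± 0.17 and 0.69 ± 0.13.

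Both genes of Okazaki fragment joining fell. Fen1, the nuclease that trims the fragments, had 2.46, 2.16, 2.52 and 2.00 untreated and 2.32, 1.18, 1.36 and 1.82 with CTLs. Its later CTL arrays stayed below the untreated range, by a small margin on day 7. Fen1 fell by 0.77 ± 0.19 (adjusted p = 0.0185) and the ligase Lig1 by 0.52 ± 0.13.

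Of the 4 nucleotide supply genes Rrm1 and Tyms passed and Rrm2 and Tk1 did not, and no test compared these genes with each other. Rrm1 and Rrm2 encode the large and small subunits of ribonucleotide reductase, which makes deoxynucleotides, Tyms makes thymidylate and Tk1 salvages thymidine. Rrm1 gave 4.31, 4.27, 4.57 and 4.41 untreated and 4.39, 3.24, 3.39 and 3.80 with CTLs. No later CTL array reached the untreated range, and Rrm1 fell by 0.94 ± 0.14 (adjusted p = 0.00287). Rrm2 gave 2.80, 2.52, 2.97 and 2.93 untreated and 2.86, 1.77, 2.72 and 3.16 with CTLs. It was lowest on day 3, nearer to the untreated array on day 5 and above it on day 7, and the mean difference was -0.25 ± 0.31 (95% interval -1.02 to 0.51, adjusted p = 0.558). Tyms fell by 0.82 ± 0.19, and Tk1 had -0.64 ± 0.24 (adjusted p = 0.0749). The Rrm1 and Rrm2 probes lie on chromosome 7 from 102342530 to 102342590 and chromosome 12 from 25302833 to 25302889 (mm8).

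Neither cyclin E gene passed. Ccne2 had -1.92, -2.22, -1.74 and -2.10 untreated and -1.996, -3.52, -2.58 and -2.13 with CTLs, a gap that closed by day 7. Its difference was -0.72 ± 0.24 (adjusted p = 0.0538), and 0.21 with normexp correction. Ccne1 had -0.46 ± 0.24 (adjusted p = 0.176). Of the remaining genes, Ssrp1, a subunit of the histone chaperone FACT, fell, and Uhrf1 and Slbp did not pass. Ssrp1 had 5.42, 5.52, 5.61 and 5.42 untreated and 5.47, 5.26, 5.03 and 5.03 with CTLs, with the lowest values on days 5 and 7 and not on day 3. It fell by 0.41 ± 0.12 (adjusted p = 0.0319). Uhrf1, which keeps DNA methylation on new strands, had 3.82, 3.48, 3.90 and 3.83 untreated and 3.78, 2.74, 3.58 and 3.64 with CTLs. It was lower mainly on day 3, with a mean of -0.42 ± 0.22 (adjusted p = 0.172). Slbp, which binds histone mRNA, had -0.30 ± 0.13 (adjusted p = 0.104).

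**Figure D3:**
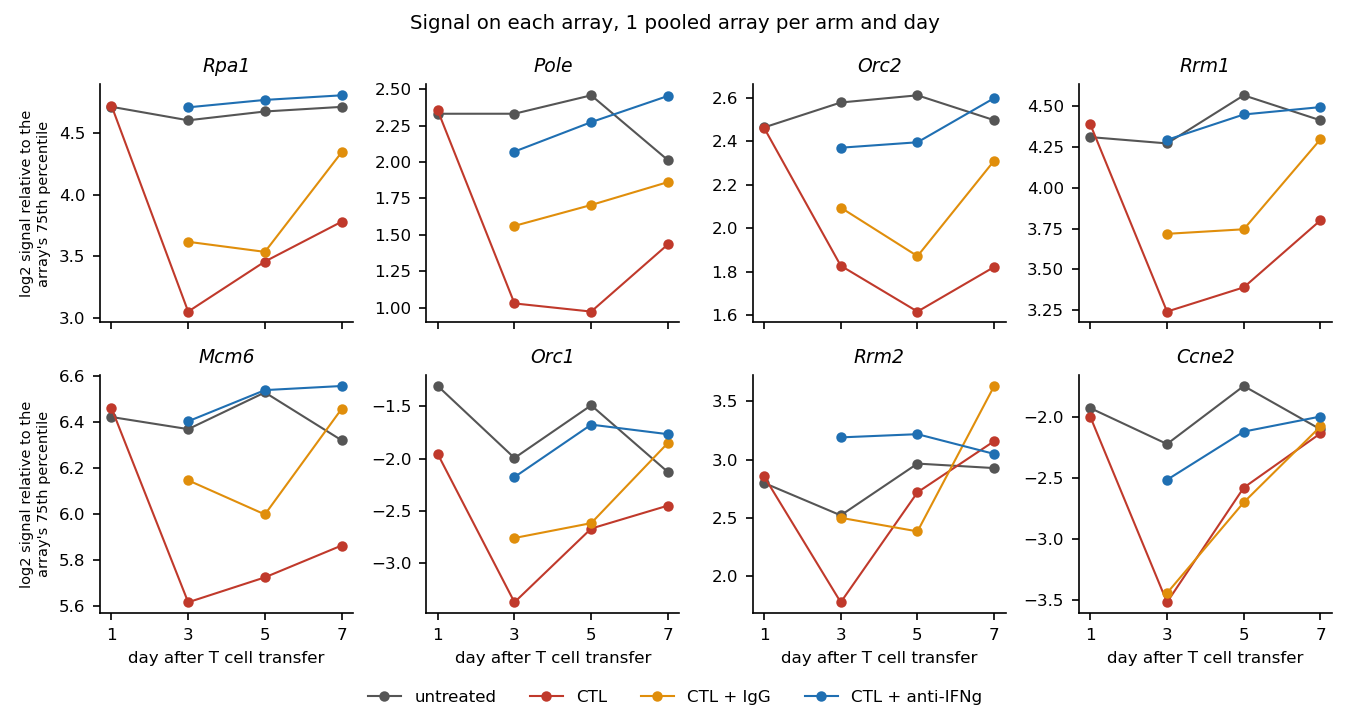
Log2 signal relative to the array's 75th percentile against the day after T cell transfer for 8 genes, 1 array per arm and day, with 1 colour per arm; each panel has its own vertical scale. Rpa1, Pole, Orc2, Rrm1 and Mcm6 stay below the untreated line on all later CTL days, whereas Rrm2 is above it on day 7 and Ccne2 meets it there.

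The day course was similar across most genes and is shown in the map of same-day differences. On day 1 the CTL and untreated arrays differed by a median of -0.02, with 24 genes below 0 and 19 above. Orc1 had -0.65 on that day and the next lowest, Cdc6, -0.20. On day 3 all 43 were lower in CTL tumours with a median of -0.95, from -1.82 for Orc6 to -0.26 for Ssrp1. On day 5 all 43 were lower again with a median of -0.96, from -1.64 for Cdc45 to -0.24 for Rfc2. On day 7 the median was -0.26, with 37 genes lower and 6 higher, namely Pola2, Pold1, Rfc3, Rrm2, Tk1 and Ccne1. The CTL array of day 3 was the lowest of days 3 to 7 for 31 genes and that of day 7 the highest for 39. The smaller day 7 difference also includes the untreated array of that day, which was the lowest untreated one for 28 genes. Over all genes the medians of the same differences were 0.00 on day 1, -0.14 on day 3, -0.03 on day 5 and -0.14 on day 7.

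**Figure D4:**
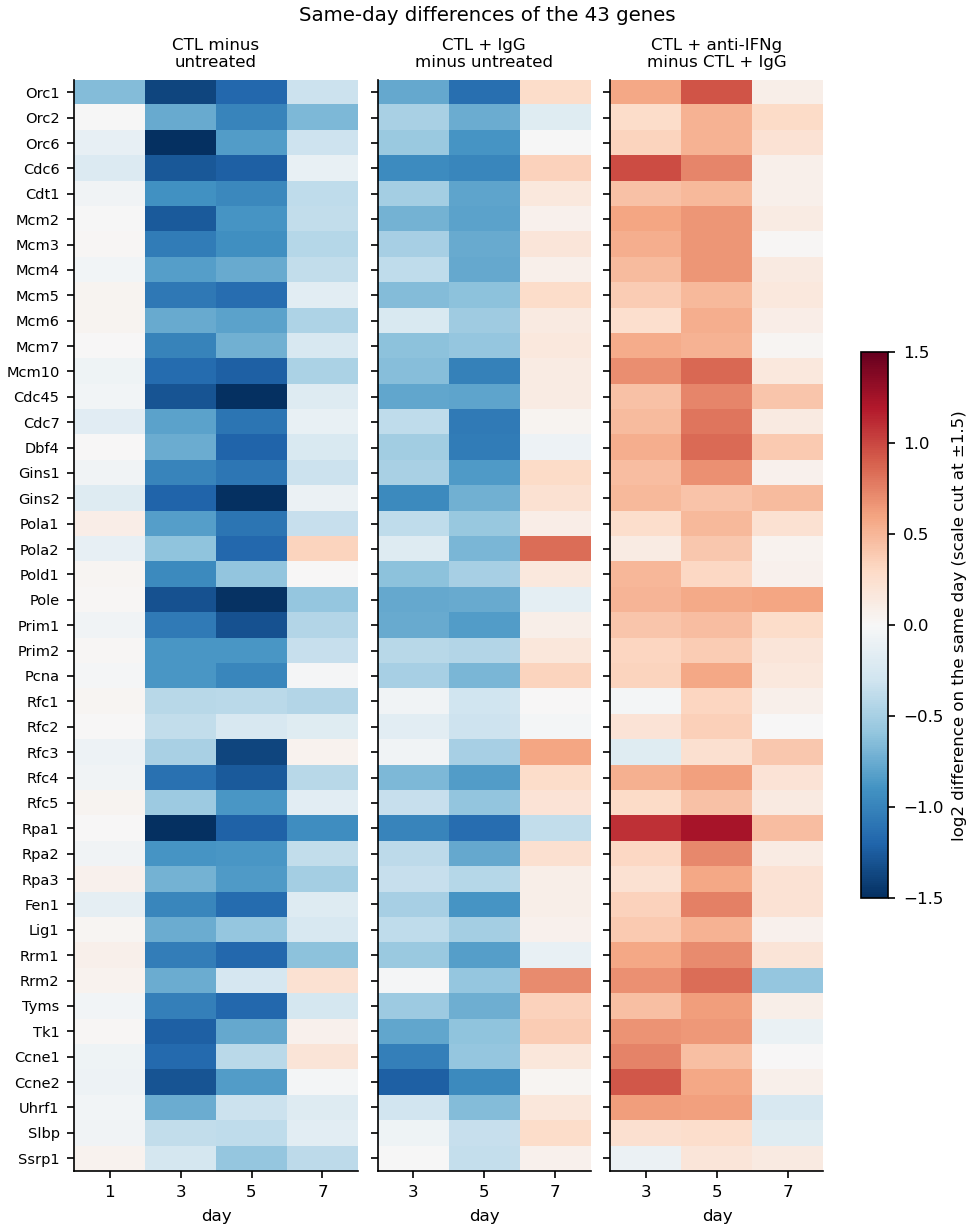
Same-day log2 differences of the 43 genes (rows, ordered by role) in 3 comparisons, with days as columns; blue is lower, red is higher, and colours saturate at 1.5 in either direction. CTL against untreated tumours is pale on day 1, blue for all 43 genes on days 3 and 5 and paler on day 7, and the antibody against IgG columns are red for all 43 genes on day 5.

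When day 1 was kept and all 14 arrays were fitted together, 5 of the 43 genes were called lower and all 43 were below 0 (41 with normexp), with a median of -0.55. Of all genes, 5.94% were called lower there. The 5 were Rpa1 (-0.92 ± 0.23), Orc1 (-0.88 ± 0.21), Pole (-0.84 ± 0.22), Rrm1 (-0.69 ± 0.19) and Orc2 (-0.61 ± 0.15), each over n = 4 days, with adjusted p between 0.0422 and 0.0496. These calls were lost without any 1 of days 3, 5 and 7, and with normexp correction, no filter on dim probes, no day term or only the CTL and untreated arrays in the fit, and without day 1 the count was 33. The interaction test asked directly whether the CTL difference of days 3 to 7 differed from that of day 1. All 43 estimates were below 0 (40 with normexp, 42 with the mean of all probes), with a median of -0.67 and the lowest at -1.24 ± 0.35 for Rpa1 (adjusted p = 0.175), and 0 genes passed by limma, with 10 at an unadjusted p under 0.05. Only 0.182% of all genes were called lower by that test at the adjusted threshold, and the share at the unadjusted one is not given here. The test rests on a single pair of day 1 arrays.

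CTL tumours with IgG repeat the T cell treatment with a control antibody, against the same untreated arrays. Rpa1, Orc2 and Rrm1 fell, 41 of 43 genes were below 0 (40 with quantile normalization or the authors' table) and the median was -0.35, against -0.10 over all genes. Called lower were 11.2% of all genes, so the 3 of 43 lie below that share. Rpa1 gave 3.62, 3.54 and 4.35 on days 3, 5 and 7, below the untreated values on each day, and fell by 0.83 ± 0.18 (adjusted p = 0.0140). Orc2 gave 2.09, 1.87 and 2.31 and fell by 0.47 ± 0.12 (adjusted p = 0.0270). Rrm1 gave 3.72, 3.75 and 4.30 and fell by 0.50 ± 0.14 (adjusted p = 0.0428). Without day 3 or without day 5 there were 0 calls by limma, with medians of -0.25 and -0.18, and without day 7 there were 24, with a median of -0.64. There were also 0 calls with normexp correction, with only the arrays of these arms and with all 14 arrays. In this comparison 5 of 7 endothelial markers fell and Tek was above 0. The summed level of the 7 was 3.63 to 4.62 against 6.65 to 8.91 in untreated tumours. Of the 7, Cdh5 and Kdr were not well above background on any IgG array, so the size of their change is uncertain. Over all 17032 genes, 1904 were called lower and 1270 higher. All 7 macrophage markers rose (17.7 to 32.3 against 3.52 to 5.50), as did 5 of 7 T cell markers (4.20 to 10.3 against 1.51 to 2.25), and the part of these cells in the result was not tested.

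Day 7 set the IgG arm apart from its earlier days, which were on other slides, so day and slide cannot be told apart within the arm. Same-day medians against untreated tumours were -0.50 on day 3 and -0.73 on day 5, with all 43 genes lower on both days, but 0.15 on day 7, with 36 genes higher and 7 lower. The untreated array of day 7 was the lowest of its arm for 28 genes. Against the mean of the untreated arrays the IgG median of day 7 was 0.01, with 19 genes below that mean. The IgG array of day 7 was the highest of its arm for 41 genes. Rrm2 reached 3.63 there, above all other 13 arrays. Only Orc2, Orc6, Dbf4, Pole and Rpa1 had all IgG arrays below all untreated arrays of those days, as had 21.3% of all genes.

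Direct comparison of CTL with IgG and CTL without antibody, 2 arms given the same T cells, gave 0 calls by limma and 16 genes at an unadjusted p under 0.05. Across all genes 0.0117% were called in either direction at the adjusted threshold. The share of all genes at the unadjusted one is not given here, so the 16 and the marker counts below are not set against it. The IgG arm was the higher in 42 of 43 genes (39 with normexp), with a median of 0.37 and Ccne1 the exception at -0.02. In 10 genes all CTL arrays of days 3 to 7 lay below all IgG arrays, as in 12.8% of all genes. These were Orc2, Mcm6, Pola2, Pole, Prim2, Rfc1, Rfc3, Rfc4, Rpa3 and Ssrp1. No marker list had a called gene here, but at an unadjusted p under 0.05 both keratinocyte markers, 3 of 4 fibroblast and 4 of 7 endothelial markers were lower with IgG, with medians of -1.48, -1.10 and -0.57. For T cell and macrophage markers it was 0 of 7 each, with medians of -0.47 and -0.40. Of the endothelial markers, Cdh5 and Kdr were not well above background on any IgG array. The part of these cells in the difference was not tested.

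The antibody comparison asked whether blocking interferon gamma changed the genes under the same T cells. All 43 genes were higher with anti-IFNg than with IgG, under each scaling tried, with a median of 0.39 against 0.06 over all genes, but only Rpa1 passed. Of all genes, 6.63% were called higher. Rpa1 gave 4.71, 4.77 and 4.81 with anti-IFNg against 3.62, 3.54 and 4.35 with IgG. The antibody arrays were as high as the untreated ones, and no IgG array reached them. Rpa1 rose by 0.93 ± 0.18, or 1.90-fold (adjusted p = 0.0132), and the call was lost without day 3 or day 5, with only the arrays of these arms in the fit (adjusted p = 0.0774), with all 14 arrays (0.0753) and with normexp correction (0.0802). Next came Rrm1 (0.49 ± 0.14, adjusted p = 0.0562), Dbf4 (0.60 ± 0.18, adjusted p = 0.0663) and Pole (0.56 ± 0.17, adjusted p = 0.0674).

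By day, the median of antibody minus IgG was 0.46 on day 3 and 0.58 on day 5, and 0.13 on day 7. On day 5 all 43 genes were higher, from 0.19 for Ssrp1 to 1.23 for Rpa1. On day 3 the exceptions were Rfc1, Rfc3 and Ssrp1, and on day 7 Rrm2 (-0.58), Uhrf1, Slbp and Tk1. In Orc2, Mcm10, Dbf4, Gins2, Pole and Rpa1 all IgG arrays lay below all antibody arrays, as in 21.3% of all genes. Without day 7 the genes called higher were Rpa1, Cdc6, Mcm10, Rfc4 and Rrm1. Of 7 endothelial markers 5 were called higher, and 2, Pecam1 and Tek, were below 0. Their summed levels over all 7 were 7.00 to 7.51 with the antibody and 3.63 to 4.62 with IgG. Of the 7, Cdh5 and Kdr were not well above background on any IgG array. Over all 17032 genes in this comparison, 1008 were called lower and 1130 higher. Macrophage markers (6 of 7 called lower) summed to 4.37 to 6.47 and 17.7 to 32.3, and T cell markers (4 of 7 lower) to 2.24 to 3.93 and 4.20 to 10.3. The part of these cells in the difference was not tested.

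Genes differed in how far the arms were apart. Pole gave 1.56, 1.70 and 1.86 with IgG on days 3, 5 and 7 and 2.07, 2.27 and 2.45 with anti-IFNg. Its arms were apart on each day, with the largest gap on day 7. Mcm10 gave 3.24, 3.08 and 3.90 with IgG and 3.94, 3.94 and 4.06 with the antibody, a gap that nearly closed on day 7 (difference 0.57 ± 0.19, adjusted p = 0.0940). Orc2 gave 2.37, 2.40 and 2.60 with the antibody, each above the highest IgG value (difference 0.36 ± 0.12, adjusted p = 0.0802). In the helicase, Mcm6 had 6.15, 6.00 and 6.46 with IgG and 6.40, 6.54 and 6.56 with the antibody, and here the arms overlapped, because the IgG array of day 7 lay above the antibody array of day 3. Orc1 overlapped as well, with -2.76, -2.62 and -1.85 against -2.18, -1.68 and -1.77. Rrm2 had 2.50, 2.38 and 3.63 with IgG and 3.19, 3.22 and 3.05 with the antibody, so that the order was turned on day 7 (difference 0.31 ± 0.31, adjusted p = 0.530).

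Against untreated tumours the antibody arm differed little. With limma 0 genes of the 43 were called, 0 had an unadjusted p under 0.05, and 29 were above and 14 below 0, with a median of 0.04. That split was not stable: 4 were below 0 with median centring, and 35 without day 7, with a median of -0.10. Of all genes 0.159% were called in either direction. Rpa1 had 0.10 ± 0.18 (95% interval -0.33 to 0.53), Rrm1 -0.0049 ± 0.14 (-0.35 to 0.34) and Orc2 -0.11 ± 0.12 (-0.39 to 0.18). These intervals leave out the size of the CTL change of Rpa1, Rrm1 and Orc2, but they do not show that the arms are equal. Same-day medians were -0.09, -0.13 and 0.28, and on day 7 all genes but Rfc2 and Uhrf1 were higher than in untreated tumours. The untreated array of that day was the lowest of its arm for 28 genes, and against the untreated mean the antibody median of day 7 was 0.13. In 39 of 43 genes every CTL array of days 3 to 7 lay below every antibody array, as in 30.9% of all genes, with Pold1, Rrm2, Ccne1 and Ccne2 as the exceptions. The untreated arrays serve in the CTL, IgG and antibody comparisons, and the IgG arrays in 3 of them, so these comparisons are not independent.

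Some genes had several probes. Second probes that were well above background on all 14 arrays kept the direction in Ccne1, Cdc6, Gins1, Mcm3, Pold1, Rfc2, Rpa2, Tyms and Uhrf1. For Cdc6 they gave -0.87 and -1.13, for Mcm3 -0.80 and -1.01 and for Rpa2 -0.71 and -0.65 in CTL against untreated tumours. Opposite signs came from probes of Dbf4, Mcm4, Pola2, Pole and Rrm1 that were not well above background on any array, at 0.61, 0.82, 0.60, 0.41 and 0.62. Tyms had a further probe, designed on another transcript record and well above background on 11 arrays, that gave 0.34 against -0.82 and -0.90 for the other 2. A further dim probe of Pola2, well above background on 7 arrays, gave -0.07. In size the largest disagreement among probes detected on some arrays was that of Cdc7, where a probe well above background on 12 arrays gave -2.17 against -0.67 for the one used.

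Other genes of replication followed, with exceptions. Of 50 listed, 48 were measured, and 30 fell and 2 rose in CTL against untreated tumours of days 3 to 7, with a median of -0.62. Over all 17032 genes in that test, 3641 were called lower and 1719 higher. Among the smallest p were Orc5, another origin subunit (-0.92 ± 0.11), Top2a, which untangles DNA (-0.74 ± 0.12), Mcm8 (-0.94 ± 0.15) and Clspn, which links the fork to the checkpoint (-1.05 ± 0.17). The 2 that rose, named after their values were seen, were Samhd1, an interferon-induced enzyme that breaks down deoxynucleotides (1.78 ± 0.49, adjusted p = 0.0273), and Pold4, the smallest subunit of polymerase delta (0.79 ± 0.13, adjusted p = 0.00481). Both fell with anti-IFNg against IgG, by 1.89 ± 0.49 and 0.55 ± 0.13.

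The E2F and Rb family did not move as a block. Of 18 genes 5 were called lower and 1 higher, with a median of -0.13, near that of all genes. Over all 17032 genes in that test, 3641 (21.4%) were called lower and 1719 higher. E2f6 fell by 0.69 ± 0.12, E2f3 by 0.64 ± 0.11 and Mybl2 by 0.69 ± 0.17, while Rb1, which holds E2F factors in check, rose by 0.41 ± 0.10 (adjusted p = 0.0195). With anti-IFNg against IgG, E2f3 rose by 0.45 ± 0.11 and Rb1 fell by 0.37 ± 0.10. E2f1, an activator of replication genes named outside the rule for naming genes, had -0.18 ± 0.20 in CTL against untreated tumours. Of 20 mitosis genes 19 fell, with a median of -0.85, among them Mki67 (-1.32 ± 0.14), Cenpe (-0.96 ± 0.15), Bub1 (-0.91 ± 0.17) and Cdc20 (-0.89 ± 0.17). With anti-IFNg against IgG 3 of the 20 rose, Mki67 by 0.99 ± 0.14, where 6.63% of all genes were called higher.

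Markers of other cells moved along with these genes. In CTL against untreated tumours of days 3 to 7 all 7 T cell and all 7 macrophage markers rose. Of endothelial markers 4 of 7 fell, while Pecam1 and Tek were above 0. Both measured erythroid markers fell and both measured keratinocyte markers rose. Of fibroblast markers 1 of 4 and of B cell markers 1 of 3 rose, and 0 of 4 muscle markers passed. Over all 17032 genes in that test, 3641 were called lower and 1719 higher. The summed macrophage level was 24.2 to 37.1 against 3.52 to 5.50 in untreated tumours, 4.37 to 6.47 with anti-IFNg and 5.52 on CTL day 1. The summed T cell level was 5.85 to 12.3 against 1.51 to 2.25, with Cd3g and Cd8a below that mark on each of the untreated arrays, and the endothelial level 4.33 to 5.18 against 6.65 to 8.91. Erythroid sums ranged from 35.6 to 427 within the untreated arm alone. The part of these cells in the results was not tested. The melanocyte sums given above, weighted to the brightest probes, overlapped between the arms, which does not show an equal share of tumour cells.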

How the data were processed

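Total RNA of B16F10 tumours, pooled per arm and day, was hybridised to Agilent one-colour (Cy3) arrays, 14 in all. Per the submitters' processing notes, images were read with Agilent Feature Extraction 9.5, and per the file headers the version was 9.5.3.1. The processed signal was used, which is a linear intensity per spot with the background already subtracted by that program, per the file headers. A value table from the authors, in log2 units, equals the log2 processed signal minus a constant per array (r = 1 over 41174 probes), with column medians from -3.54 to -3.14, and its use was an alternative. The genome build of the probe coordinates is mm8 per the file headers.

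From the scanner files, log2 processed signal was computed relative to the array's 75th percentile over 43379 spots that are not controls, spots of a probe were averaged and outlier spots were left out. Probes were kept where well above background on at least 3 arrays, 1 probe per gene. Of 41174 probes, 24488 were named through an accession and 16686 kept the name in the file. The model in limma 3.58.1 (R 4.3.3) had terms for arm and for day, and two-sided p-values, adjusted across all genes by Benjamini-Hochberg, were read at 0.05. The fit for days 3 to 7 used 12 arrays of 4 arms, and the fits with day 1 used all 14. Intervals use the residual degrees of freedom. The day is the slide, so its term also removes differences between slides, and same-day arrays are paired by it. Over days 3 to 7, deviations of same-day arrays from their arm means correlated over 0.1 in 12 of 18 pairs (median r = 0.129, range -0.0442 to 0.509). The number of arrays limits the precision.

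The 43 genes, all lists and the window of days 3 to 7 were chosen with earlier results of these data known, and no list was tested as a set. Values on every array are given for the gene with the largest change and the gene with the smallest p of each role in CTL against untreated tumours of days 3 to 7, and for genes called with day 1 kept; genes whose probes disagree in sign are named. From other lists up to 4 genes with the smallest p were named, and E2f1, Samhd1 and Pold4 were named outside that rule. Scripts were tested on simulated data. Alternatives were normexp correction with an offset of 50, quantile normalization, median centring, the authors' table, 2 other filters, all probes of a gene, no day term, fewer or more arrays, and leaving out each day. A list of genes used to check the treatment is not reported here as a whole.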

Additional observations from a re-analysis of the deposited data

Results flagged for a closer look

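In 2 of 86 sets of 4 arrays (43 genes in the untreated and in the CTL arm) 1 array stood far from the other 3, and chance gives about 1 such set in 20. Gins2 in untreated tumours was 0.916 on day 7, against 1.74 to 1.82 on days 1, 3 and 5. That array makes the same-day CTL difference of Gins2 -0.087 on day 7, against -1.20 on day 3 and -1.51 on day 5. Pola1 in untreated tumours was 1.57 on day 5, against 1.28 to 1.31 on the other days.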

How the results depend on the processing

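In CTL against untreated tumours of days 3 to 7 the count was 33, and 31 to 35 under normexp, quantile or median centring, the authors' table, the stricter filter, all probes, or no replicate block (32), and 23 with no filter. It was 1 with only the arrays of these arms, 5 with all 14 arrays, and 0 to 37 with a day left out. All 43 genes stayed below 0 in each of these settings except normexp, which turned Orc1 (0.076), Pola2 (0.079) and Ccne2 (0.21). Scaling moved the median of all genes from -0.10 to 0.08 with normexp and -0.24 with median centring, and the 43 genes lay 0.59 to 0.98 below it under the scalings tried. Of 5360 genes called, 3641 were lower, against 2557 of 4645 with normexp; 836 genes were called with 2 arms, 1839 with 14 arrays, 3293 with no filter and 661 to 5109 with a day left out.

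With day 1 kept the count of 5 became 0 with normexp, no filter, no replicate block or 2 arms, 13 with the stricter filter, and 0 to 33 with a day left out; normexp turned Pola2 (0.029) and Ccne2 (0.13), and Rrm2 ranged from -0.31 to 0.014 with a day left out. Of 1839 genes called 1012 were lower, against 107 of 489 with normexp; 6 genes were called with no filter, 5 with no replicate block, 1 with 2 arms and 0 to 5360 with a day left out.

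For IgG against untreated tumours the count of 3 became 0 with normexp, 2 arms or 14 arrays, 1 with median centring or no filter, and 0 to 24 with a day left out. Pola2 was 0.050 with quantile normalization, 0.011 with the authors' table and 0.031 with 14 arrays. With a day left out Pola2 ranged from -0.44 to 0.32, Slbp from -0.21 to 0.11, Ssrp1 from -0.18 to 0.029, Rfc3 from -0.27 to 0.28 and Rrm2 from -0.30 to 0.34. Of 3174 genes called 1904 were lower, against 326 of 940 with normexp; 1062 genes were called with 2 arms, 1705 with 14 arrays, 2003 with no filter and 526 to 2699 with a day left out.

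For antibody against IgG the count of 1 became 0 with normexp, 2 arms or 14 arrays, 2 with the stricter filter, and 0 to 5 with a day left out, and all 43 genes stayed above 0 in each setting. Of 2138 genes called 1130 were higher, against 140 of 643 with normexp and 1 of 2 with 14 arrays; 911 genes were called with 2 arms, 1144 with no filter and 50 to 1376 with a day left out. Counts over all genes in either direction were 27 in the main fit of antibody against untreated tumours, and ran from 0 to 54. For IgG against CTL they were 2 in the main fit and ran from 0 to 4. For the interaction they were 173 in the main fit, 31 lower and 142 higher, and ran from 0 to 298. The median of IgG minus CTL moved from 0.37 to 0.57 with normexp. In the interaction normexp turned Orc1 (0.54), Pola2 (0.20) and Ccne2 (0.33), and all probes turned Pola2 (0.14). The cause of these changes was not tested.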
